A study of Homo sapiens with 8 samples.

Results

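The genes described here are 34 genes of glycolysis and of the response to low oxygen, taken by name from a list: 2 glucose transporters, 17 glycolytic enzymes, 3 regulators of glycolytic flux, 11 other targets of hypoxia-inducible factor (HIF), and HIF1A itself. Of the 49395 probe sets on the array, 122 name a member. Each gene was represented by its brightest probe set, by mean log2 level, among those that name no other gene. This gave a value to 18132 genes, 32 of the members among them. SLC2A3, a neuronal-type glucose transporter, had 5 probe sets that all also name SLC2A14 and so has no value, and CA9, a carbonic anhydrase, has no expression value here, though its promoter window is counted among those below. All 32 passed the level filter, a highest log2 value of at least 6, as did 11529 of all genes.

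The cells were KBM7, a near-haploid human chronic myeloid leukaemia line in which a single gene-trap insertion can disable a gene. Wild-type (WT) cells and a JAK2 mutant were left alone or kept for 6 hours with 100 ng/ml IFN-gamma, and WT cells and a TNFRSF1A mutant were left alone or kept for 6 hours with 10 ng/ml TNF-alpha. JAK2 is a kinase of the IFN-gamma receptor and TNFRSF1A is the main TNF-alpha receptor. Each mutant is a single line by its labels, so what is particular to the line and what follows from the trapped gene cannot be told apart. Unstimulated WT cells were measured on 2 of the 8 arrays, replicate 1 in the IFN-gamma experiment and replicate 2 in the TNF-alpha experiment, and there was 1 array for each of the other 6 conditions. Differences between arrays were therefore counted by size, from 2-fold upward, with no p-value. The labels leave unsaid if the 2 WT controls were separate cultures.

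Glycolysis turns glucose into pyruvate in the cytosol, and lactate dehydrogenase turns pyruvate into lactate so that the pathway can run without oxygen. Under normal oxygen, the prolyl hydroxylases of the EGLN family mark HIF1A protein for destruction, so HIF1A is controlled mainly at the protein level. When oxygen is low or the hydroxylases are inhibited, the protein persists and binds hypoxia response elements near genes for glucose uptake, glycolysis, blood vessel growth, collagen modification and mitochondrial turnover. Inflammatory and growth factor signals are also known to raise HIF1A in blood cells.

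The core of a hypoxia response element is the 5 letters ACGTG or GCGTG. Promoter windows of 300 bases, from 250 before to 50 after a start site, were read for 30 members from RefSeq (GRCh38.p14), and both strands were searched. A CACGTG palindrome, the E-box that MYC and other factors can bind, contains ACGTG on both strands. The windows shown are of 5 members that stood 2-fold apart between the WT controls (GPI, ALDOC, ENO2, ADM, P4HA1) and 1 that stood 2-fold lower in the JAK2 mutant (PFKFB4). The other 2 are of enzymes whose brightest probe set was nearly the same in both WT controls (LDHA, PGAM1). Capitals mark the motif, or its complement where it lies on the other strand.
GPI: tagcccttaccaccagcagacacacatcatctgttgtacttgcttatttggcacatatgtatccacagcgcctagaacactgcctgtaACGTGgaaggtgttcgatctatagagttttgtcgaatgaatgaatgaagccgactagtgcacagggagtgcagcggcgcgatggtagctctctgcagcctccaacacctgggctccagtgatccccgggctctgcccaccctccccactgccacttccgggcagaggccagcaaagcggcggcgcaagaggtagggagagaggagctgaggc
ALDOC: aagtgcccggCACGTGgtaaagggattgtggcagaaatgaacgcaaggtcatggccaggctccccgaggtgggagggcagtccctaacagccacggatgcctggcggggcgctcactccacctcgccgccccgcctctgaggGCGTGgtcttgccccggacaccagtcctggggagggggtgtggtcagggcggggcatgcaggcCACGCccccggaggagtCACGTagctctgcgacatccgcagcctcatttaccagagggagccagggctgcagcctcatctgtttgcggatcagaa
ENO2: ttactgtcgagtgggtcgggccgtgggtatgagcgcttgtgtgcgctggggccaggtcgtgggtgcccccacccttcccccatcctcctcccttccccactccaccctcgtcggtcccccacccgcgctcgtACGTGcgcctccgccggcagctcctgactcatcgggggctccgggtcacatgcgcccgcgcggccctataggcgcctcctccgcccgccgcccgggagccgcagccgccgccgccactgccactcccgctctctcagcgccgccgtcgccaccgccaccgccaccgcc
ADM: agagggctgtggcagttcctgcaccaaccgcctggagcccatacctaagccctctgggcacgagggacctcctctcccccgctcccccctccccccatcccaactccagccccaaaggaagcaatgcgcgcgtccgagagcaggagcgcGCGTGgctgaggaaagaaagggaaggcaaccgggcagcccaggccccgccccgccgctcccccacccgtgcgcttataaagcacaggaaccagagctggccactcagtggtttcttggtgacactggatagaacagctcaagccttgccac
P4HA1: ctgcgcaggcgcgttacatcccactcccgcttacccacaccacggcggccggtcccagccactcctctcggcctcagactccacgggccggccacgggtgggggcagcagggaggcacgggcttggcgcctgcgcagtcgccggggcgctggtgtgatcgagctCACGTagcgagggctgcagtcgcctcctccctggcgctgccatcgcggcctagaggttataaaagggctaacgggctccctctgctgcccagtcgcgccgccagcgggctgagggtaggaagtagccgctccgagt
PFKFB4: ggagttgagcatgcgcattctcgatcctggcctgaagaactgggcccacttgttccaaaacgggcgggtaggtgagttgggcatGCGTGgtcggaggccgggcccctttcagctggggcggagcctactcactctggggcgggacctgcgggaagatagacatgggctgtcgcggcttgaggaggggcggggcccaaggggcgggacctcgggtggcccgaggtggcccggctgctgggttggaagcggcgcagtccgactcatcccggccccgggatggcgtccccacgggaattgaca
LDHA: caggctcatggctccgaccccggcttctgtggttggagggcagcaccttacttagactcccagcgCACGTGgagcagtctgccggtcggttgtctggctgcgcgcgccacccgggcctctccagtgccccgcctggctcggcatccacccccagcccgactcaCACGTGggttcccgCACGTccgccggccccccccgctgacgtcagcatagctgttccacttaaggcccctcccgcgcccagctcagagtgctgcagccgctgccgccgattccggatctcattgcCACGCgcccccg
PGAM1: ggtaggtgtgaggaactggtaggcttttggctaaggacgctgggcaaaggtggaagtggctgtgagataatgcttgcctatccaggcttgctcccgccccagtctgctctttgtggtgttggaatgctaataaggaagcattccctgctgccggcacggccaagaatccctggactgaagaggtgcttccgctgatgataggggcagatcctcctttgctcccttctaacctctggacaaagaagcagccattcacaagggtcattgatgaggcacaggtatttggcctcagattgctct
They lie at GPI chr19:34364742-34365041 (+), ALDOC chr17:28576846-28577145 (-), ENO2 chr12:6914330-6914629 (+), ADM chr11:10304823-10305122 (+), P4HA1 chr10:73096817-73097116 (-), PFKFB4 chr3:48556754-48557053 (-), LDHA chr11:18394313-18394612 (+, 1 of 2 windows of the gene) and PGAM1 chr10:97427568-97427867 (+). LDHA held 2 CACGTG palindromes and ALDOC 1, and PGAM1 held no match. ACGTG was in 55.6% of the 9 windows of other HIF targets and in 40.5% of the 37 windows of glycolytic enzymes, against 25.2% of the windows of all compared genes and 21.4% of all 35116 windows. GCGTG was in 44.4% and 37.8% of these member windows, against 48.1% for compared genes and 36.5% of all windows. HK1 and PFKM have 7 windows each, and counted by gene ACGTG was in 5 of 8 other HIF targets (62.5%) and 11 of 17 enzymes (64.7%), against 32.2% of compared genes and 24.9% of all genes. GCGTG was in 37.5% and 64.7% of these members by gene, against 57.9% and 40.6%. A gene counts if any of its windows matches, which favours genes with more windows. The 17 enzymes have 37 windows, where 9464 compared genes have 13792. NDRG1, VEGFA and BNIP3L had no window and are not in these shares. The median GC content was 69.0% in the windows of other HIF targets, 68.0% in those of enzymes, 64.7% in those of compared genes and 58.7% in all windows, and its part in the motif shares was not tested. A match is a run of letters and says nothing about binding in these cells.

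Median intensities of the arrays ran from 63.9 to 66.9. All 3 JAK2 probe sets were lowest in the JAK2 mutant arrays, the brightest at 5.08 and 5.32 on the log2 scale, in the background range, where the lowest other array was at 6.14. The brightest TNFRSF1A probe set was at 6.56 and 6.55 in the TNFRSF1A mutant arrays and between 9.23 and 9.83 elsewhere. Of 11 myeloid progenitor markers 10 had a value, and on all arrays CD34, KIT and CEBPA were above the background range while ELANE, AZU1 and SPI1 lay in it. Of the markers of T cells, monocytes or macrophages, and fibroblasts or endothelium, 4 of 5, 4 of 5 and 4 of 6 lay in the background range on all arrays. Of the B cell, erythroid and megakaryocyte markers with a value, 1 of 4, 3 of 7 and 3 of 6 did. The ratio of the 3′ to the 5′ control probe set of beta-actin, which rises as RNA is degraded, ran from 3.27 to 6.47. The RNA was from whole cultures, in which fewer cells of a type and less RNA per cell cannot be told apart.

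The first comparison is between the unstimulated WT controls of the 2 experiments. Here 7 of the 32 members were at least 2-fold higher in WT replicate 2 and 0 were lower, where 0.954% of all compared genes were 2-fold higher and 1.03% were lower. Of the other HIF targets, NDRG1, ADM, P4HA1 and VEGFA passed, and of the 17 enzymes GPI, ALDOC and ENO2. The median log2 difference was 0.97 over the 10 other HIF targets, 0.14 over the enzymes and -0.04 over all compared genes. The SD of the difference over all compared genes was 0.38, a spread in which array noise and the change of experiment are mixed. At 1.5-fold 9 members were higher, EGLN3 and ANKRD37 being added, and 0 lower, where 4.49% of all genes were higher.

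**Figure D1:**
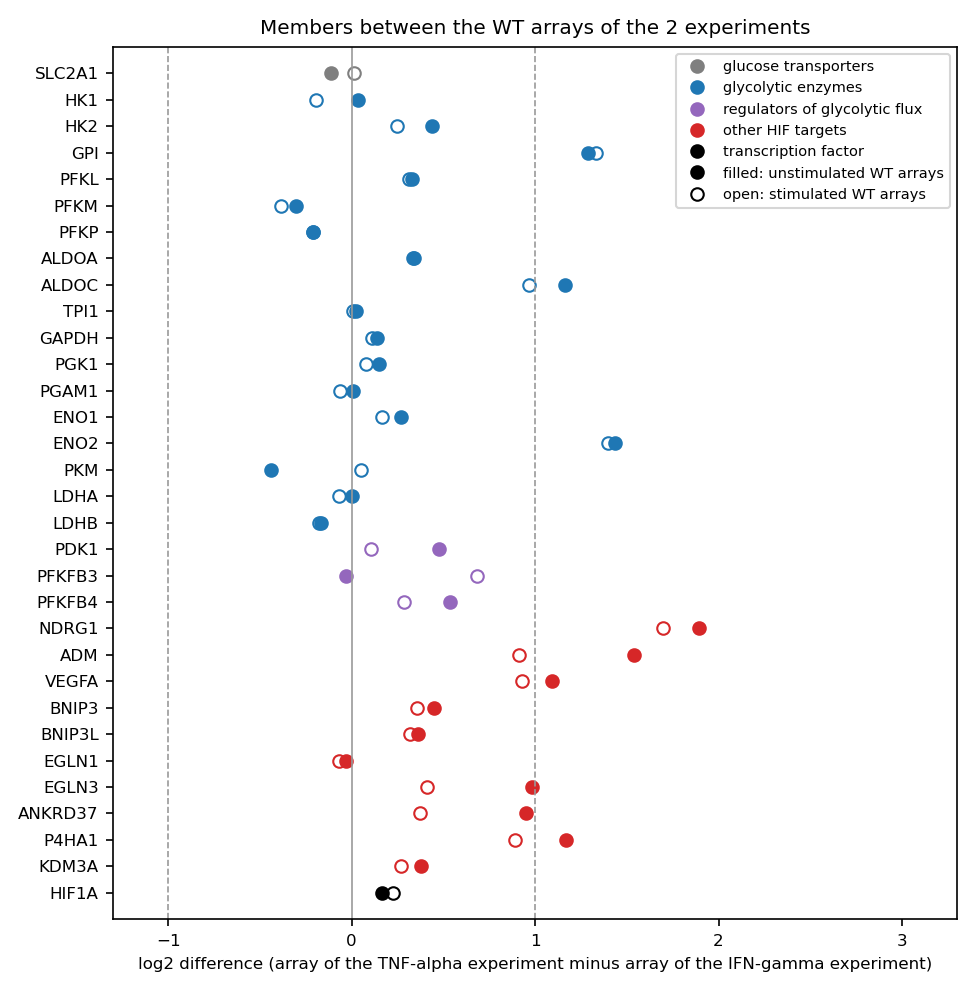
Log2 differences of the 32 members (rows, coloured by role) between WT arrays of the TNF-alpha and the IFN-gamma experiment; filled points are the unstimulated arrays, open points the stimulated arrays, and dashed lines mark 2-fold. NDRG1 lies farthest to the right at 1.89, and LDHA, PGAM1 and TPI1 lie at 0.00 to 0.03 among the filled points.

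Values in single arrays follow in one order: WT replicate 1, WT with IFN-gamma, JAK2 mutant, JAK2 mutant with IFN-gamma, then WT replicate 2, WT with TNF-alpha, TNFRSF1A mutant, TNFRSF1A mutant with TNF-alpha. All are log2 levels of a gene's own probe set, and levels of different genes are not compared. NDRG1, a stress-induced regulator of growth and differentiation, was at 10.27, 10.37, 10.42 and 10.41 in the IFN-gamma experiment and at 12.16, 12.07, 11.52 and 11.45 in the TNF-alpha experiment. Every array of the TNF-alpha experiment lay above every array of the other, with a gap of 1.03, and the WT controls differed 3.71-fold. The other 5 NDRG1 probe sets lay in the background range in WT replicate 1, so the size rests on this one.

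ADM, which encodes the vasodilator peptide adrenomedullin, was at 10.31, 10.97, 9.15 and 9.23, and at 11.85, 11.88, 11.90 and 11.81. The experiments did not overlap, the WT controls differed 2.91-fold, and the JAK2 mutant arrays were the lowest of the 8. Its 3 probe sets gave log2 differences of 1.35 to 1.57 between the WT controls. VEGFA, the growth factor of blood vessels, was at 10.71, 10.95, 10.37 and 10.42, and at 11.80, 11.88, 11.54 and 11.64. Of its 10 probe sets 2 lay in the background range in WT replicate 1, and the other 8 were higher in WT replicate 2 by 0.31 to 1.28, 4 of them past 2-fold.

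P4HA1, a subunit of the prolyl hydroxylase that stabilises collagen, was at 11.40, 11.58, 10.99 and 11.24, and at 12.57, 12.47, 12.31 and 12.24. ANKRD37, a small ankyrin-repeat protein, was at 10.14, 10.68, 9.63 and 9.70, and at 11.10, 11.05, 10.82 and 10.83. Neither gene overlapped between the experiments, and ANKRD37 stopped short of 2-fold between the WT controls at 0.95. EGLN3, a HIF prolyl hydroxylase that is itself a HIF target, was at 7.29, 7.94, 7.78 and 7.80, and at 8.27, 8.35, 8.56 and 8.46. WT replicate 1 was its lowest array, and its difference of 0.98 also stopped short of 2-fold.

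The remaining HIF targets differed less. BNIP3 and BNIP3L, which drive removal of mitochondria, were 0.45 and 0.36 higher in WT replicate 2, and KDM3A, a histone demethylase, was 0.38 higher. EGLN1, the main HIF prolyl hydroxylase in most cells, was at 10.19, 10.10, 9.64 and 9.76, and at 10.16, 10.03, 10.10 and 10.14. By the brightest probe sets it was the only one of the 10 that was not higher in WT replicate 2, at -0.03, and the only one whose experiments overlapped. The other EGLN1 probe sets were 0.19 and 0.23 higher in WT replicate 2, so this exception rests on the brightest.

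Among the glycolytic enzymes, the difference was concentrated in 3 genes. ENO2, the neuron-type enolase, was at 7.70, 7.72, 7.53 and 7.16, and at 9.13, 9.11, 8.50 and 8.60, and the WT controls differed 2.70-fold. GPI, which turns glucose-6-phosphate into fructose-6-phosphate, was at 11.75, 11.71, 11.87 and 11.81, and at 13.04, 13.04, 13.15 and 13.04. GPI had the widest gap of all members between the experiments, 1.16, with little spread within either. ENO2 and GPI rest on 1 probe set each.

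ALDOC, the brain-type aldolase, was at 11.48, 11.56, 10.70 and 10.62, and at 12.65, 12.53, 12.29 and 12.24. Its 5 probe sets all passed 2-fold between the WT controls, at 1.16 to 1.65, and the experiments did not overlap. The broadly expressed isoforms of the same steps differed less between the WT controls: ALDOA was 0.34 higher in WT replicate 2 and ENO1 0.27. HK2, the inducible hexokinase, was 0.44 higher and PFKL, the liver-type phosphofructokinase, 0.33 higher. PKM, pyruvate kinase, was 0.44 lower in replicate 2, though its stimulated WT arrays differed by 0.05 in the other direction.

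LDHA, which makes lactate, differed by 0.00 between the WT controls, PGAM1 by 0.01, TPI1 by 0.03, HK1 by 0.03, GAPDH by 0.14 and PGK1 by 0.15. Those are the brightest probe sets, and dimmer ones of PGAM1 and PGK1 were up to 0.42 and 0.55 higher in WT replicate 2. The other probe sets of LDHA and TPI1 differed by at most 0.01 and 0.06. Over all 8 arrays LDHA ranged over 0.14 on the log2 scale, GAPDH over 0.16 and TPI1 over 0.17. Most of these genes are at the bright end of the array, where signals compress: LDHA lay 0.29 below the brightest probe set of its array, GAPDH 0.58, PGK1 0.80, PGAM1 1.01 and TPI1 1.65, while HK1 lay 3.79 below it. The part of that ceiling in their small differences was not tested. PFKP and LDHB were the members whose values in the TNF-alpha experiment all lay below those of the IFN-gamma experiment, by 0.21 and 0.16 between the WT controls.

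The transporter SLC2A1, the main glucose carrier of blood cells, was at 10.14, 10.02, 9.66 and 9.64, and at 10.03, 10.03, 10.23 and 10.30. Its experiments overlapped and its WT controls differed by -0.11, while its dimmer probe sets above the background range were 0.18 and 0.21 higher in WT replicate 2. The 5 probe sets that name both SLC2A3 and SLC2A14 were 0.43 to 0.74 higher in WT replicate 2. With IFN-gamma they were 0.45 to 0.55 higher in WT, and the JAK2 mutant was at -0.77 to -0.56 from WT. The part of each of these 2 genes cannot be told apart. Of the flux regulators, PDK1, a kinase that closes pyruvate dehydrogenase, was at 11.00, 11.22, 10.72 and 10.93, and at 11.48, 11.32, 11.53 and 11.47. PFKFB4, which sets the level of the phosphofructokinase activator fructose-2,6-bisphosphate, was at 9.88, 9.98, 8.80 and 8.80, and at 10.42, 10.27, 10.07 and 10.04. Neither reached 2-fold between the WT controls, at 0.48 and 0.54, but by these brightest probe sets neither overlapped between the experiments. A dimmer probe set of each did overlap, and gave 0.16 for PDK1 and 0.29 for PFKFB4 between the WT controls.

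HIF1A, the oxygen-regulated subunit, was at 11.55, 11.57, 11.38 and 11.36, and at 11.72, 11.80, 11.72 and 11.78. By this brightest probe set the experiments did not overlap, with a gap of 0.14, and the WT controls differed by 0.16, under the spread over genes. Its 8 probe sets gave 0.08 to 0.45 between the WT controls. Some of the dimmer ones overlapped, as at 6.98 to 7.28 in the IFN-gamma and 7.11 to 7.73 in the TNF-alpha experiment. These are mRNA levels and say nothing about HIF1A protein.

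The stimulated WT arrays, which share no array with the unstimulated pair, differed the same way. WT with TNF-alpha was at least 2-fold above WT with IFN-gamma for NDRG1 (1.70), ENO2 (1.40) and GPI (1.33), 3 of 32 members, where 1.01% of all compared genes were. No member was 2-fold lower, where 1.15% of all genes were. The median difference was 0.39 over the 10 other HIF targets and 0.08 over the enzymes, and ADM (0.91), VEGFA (0.93), P4HA1 (0.89) and ALDOC (0.97) stood just below 2-fold. All 10 other HIF targets had the same sign in both pairs, 26 of the 32 members did, and 9014 of all 11529 compared genes did. The stimulated arrays also differ in their cytokine, so this pair does not isolate the experiment. Their actin 3′ to 5′ ratios were equal at 4.81, where those of the unstimulated WT arrays were 4.41 and 3.27.

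Over all 8 arrays, the 4 values of the TNF-alpha experiment lay above the 4 of the IFN-gamma experiment for 9 of 10 other HIF targets, 8 of 17 enzymes, PDK1, PFKFB4 and HIF1A, against 17.3% of all compared genes. The 8 enzymes were HK2, GPI, PFKL, ALDOA, ALDOC, GAPDH, ENO1 and ENO2. These counts use each gene's brightest probe set, and some dimmer ones, as of HK2, PDK1, PFKFB4 and HIF1A, overlapped. A limma fit of experiment, JAK2 and TNFRSF1A genotype and both cytokines as additive terms, with 2 residual degrees of freedom, called 17 of 32 members higher in the TNF-alpha experiment and 0 lower, where it called 12.3% of all genes higher and 16.6% lower. Its adjusted p was 0.0055 for NDRG1, 0.0085 for ADM, 0.0055 for GPI and 0.0069 for ENO2, by limma with Benjamini-Hochberg adjustment. These p-values measure only the spread between these arrays, which may be technical, and the experiment cannot be told apart from the cultures or the handling it was run with.

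**Figure D2:**
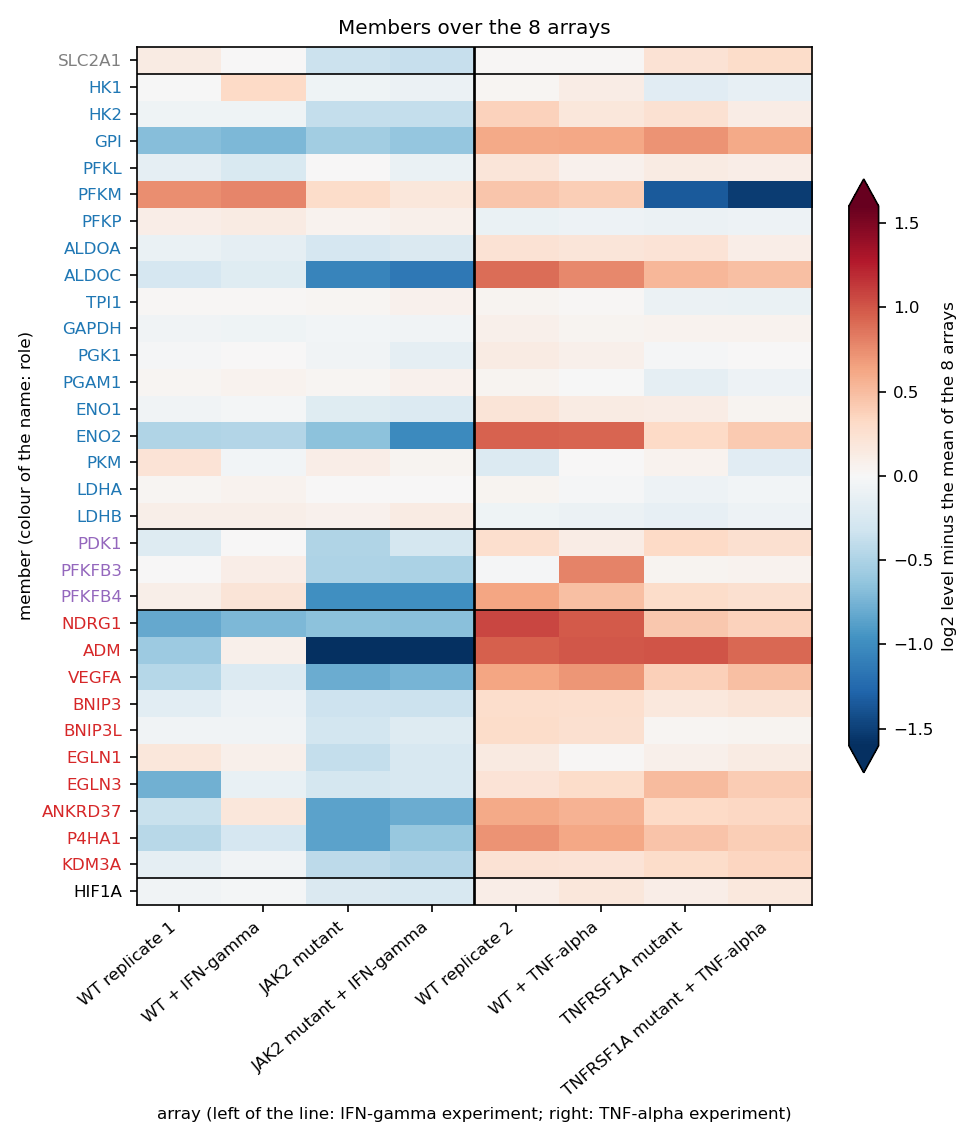
Log2 level of each of the 32 members (rows, name coloured by role as in the plot of the WT arrays) minus its mean over the 8 arrays (columns); the vertical line parts the IFN-gamma experiment from the TNF-alpha experiment. NDRG1, ADM, VEGFA, P4HA1, GPI, ALDOC and ENO2 change colour at the line, and the columns of the JAK2 mutant are the lowest for ADM, PFKFB4, ALDOC and ANKRD37.

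Further lists of the same pathways, written with earlier results of these data known, gave the surroundings of the members. Of 32 further HIF-inducible genes, 7 were 2-fold higher in WT replicate 2 and 0 were lower, with a median of 0.50. The largest were CXCR4 (1.73), a chemokine receptor, HILPDA (1.52), a lipid droplet protein, and LOX (1.14), a collagen cross-linking enzyme. Of 31 oxidative phosphorylation subunits none passed 2-fold, and 21 had all values of the TNF-alpha experiment below those of the other, where 22.5% of all genes did. Of 15 HIF subunits and oxygen-sensing regulators, 0 passed 2-fold and the median was 0.01, and of 16 further glycolysis genes 1 passed, SLC2A6, a lysosomal hexose transporter, at -1.37. PDK3, a relative of PDK1, was 1.20 higher in WT replicate 2.

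The JAK2 mutant was compared with the WT arrays of its experiment, without and with IFN-gamma. ADM and PFKFB4 were at least 2-fold lower in both, at -1.16 and -1.08 without the cytokine and at -1.75 and -1.18 with it, and no member was 2-fold higher. That is 2 of 32 members in each comparison, where 1.91% and 2.67% of all compared genes were 2-fold lower and 0.226% and 0.347% were 2-fold higher. At 1.5-fold 3 and 6 members were lower, where 4.29% and 5.51% of all genes were. The median difference of the other HIF targets was -0.30 and -0.34, that of the enzymes -0.05 and -0.06 and that of all genes 0.03 in each. The first of these comparisons shares WT replicate 1 with the WT pair.

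ALDOC followed at -0.78 and -0.94, and its 5 probe sets gave -0.88 to -0.64 without IFN-gamma. ANKRD37 was at -0.51 and -0.98. EGLN1 was the HIF target next to ADM among those lower without the cytokine, at -0.55 and then -0.34. Its other probe sets gave -0.17 and -0.31 without the cytokine, so that rank rests on the brightest. SLC2A1 was at -0.48 and -0.38 and PFKM at -0.46 and -0.60.

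PFKFB3, the inducible relative of PFKFB4, was at 11.17, 11.26, 10.67 and 10.66, and at 11.14, 11.95, 11.20 and 11.22. Both JAK2 mutant arrays were its lowest, at -0.50 and -0.61 from WT, but of its 4 probe sets 2 lay in the background range, and the other of the 2 above it was at 0.28 without IFN-gamma. Of the 4 PFKFB4 probe sets the brightest alone was above the background range in both unstimulated arrays, so the size rests on it. With IFN-gamma a dimmer PFKFB4 probe set was also above it in both arrays and gave -0.45, under 2-fold. NDRG1, which differed most between the WT controls, was 0.16 and 0.04 higher in the JAK2 mutant, and EGLN3 was 0.49 higher without IFN-gamma and -0.14 with it.

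Both JAK2 mutant arrays lay below both WT arrays of the experiment for 23 of 32 members, against 27.5% of all compared genes. They lay below all 6 other arrays for 8 of 10 other HIF targets, all but NDRG1 and EGLN3, for 6 of 17 enzymes (HK2, ALDOA, ALDOC, PGK1, ENO1 and ENO2), for PDK1, PFKFB3 and PFKFB4, for SLC2A1 and for HIF1A, against 18.3% of all genes. Not all probe sets of these genes went that way. An HK2 probe set other than the brightest was 0.06 higher in the JAK2 mutant in both treatments. All HIF1A probe sets were lower without IFN-gamma, but some were up to 0.10 higher with it. Some VEGFA probe sets were up to 0.26 higher without IFN-gamma. The differences of the members without and with IFN-gamma share no array. They had the same sign for 28 of 32 members and 8939 of all 11529 compared genes, and a Pearson correlation of 0.88 over the members, against 0.86 over all genes, whose 4 arrays are the same. The additive limma fit called 12 of 32 members lower in the JAK2 mutant and 0 higher, where it called 10.9% of all genes lower and 15.1% higher, with ADM at -1.45 (SE 0.14, adjusted p = 0.0047 by limma) and PFKFB4 at -1.13 (SE 0.07, adjusted p = 0.0010 by limma). In this fit the unstimulated and the stimulated array of the mutant line stand as its replicates. These SEs and p-values therefore do not measure the spread between cultures or lines.

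**Figure D3:**
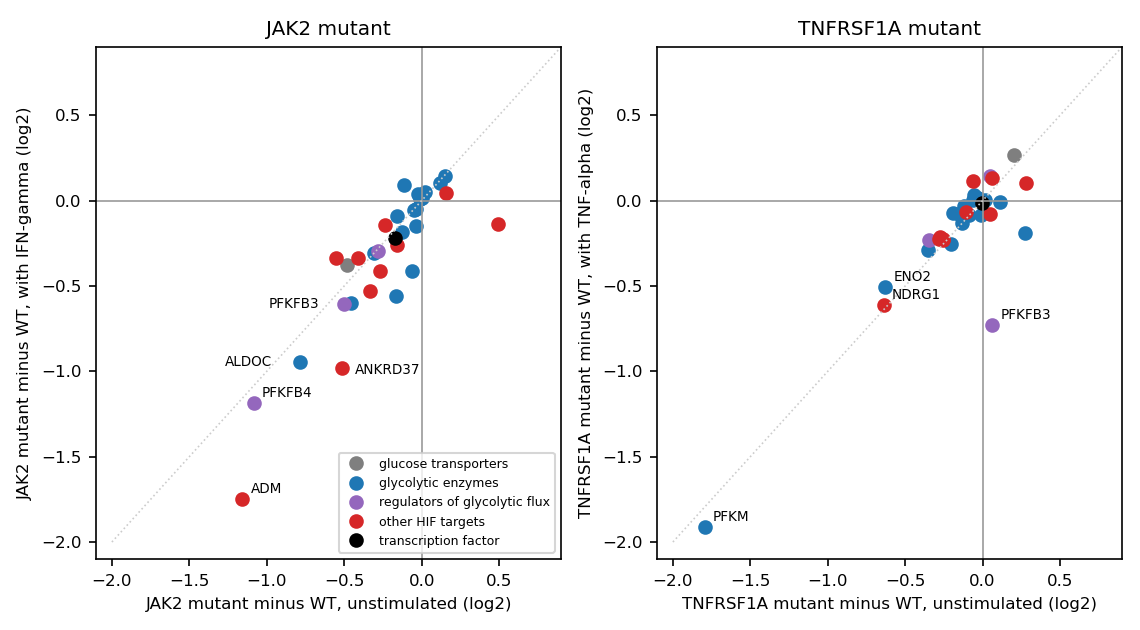
Log2 difference of each member between mutant and WT, unstimulated (horizontal axis) and stimulated (vertical axis), for the JAK2 mutant (left) and the TNFRSF1A mutant (right); points are coloured by role and the dotted line marks equal differences. ADM and PFKFB4 lie farthest down on the left, at -1.16 and -1.75 and at -1.08 and -1.18, and PFKM stands alone on the right.

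Of the 32 further HIF-inducible genes, 4 were 2-fold lower in the unstimulated JAK2 mutant and 8 with IFN-gamma, and 0 were higher. CXCR4 was at -2.19 and -1.94, ANGPTL4, an inhibitor of lipoprotein lipase, at -1.15 and -1.63, and BHLHE40, a repressor of the circadian clock, at -1.11 and -1.08. TMEM45A, a membrane protein, had levels of 7.84 and 8.10 in the WT arrays of the experiment and lay in the background range in both JAK2 mutant arrays. MYCN, a MYC family factor that can raise glycolytic genes, was at a level of 6.34 in WT replicate 1 and lay in the background range in both mutant arrays. The oxidative phosphorylation subunits had medians of 0.13 and 0.18. The actin 3′ to 5′ ratios of the JAK2 mutant arrays, 5.74 and 6.47, were above those of the WT arrays of the experiment, 4.41 and 4.81, and marker levels moved too. The summed linear level in the mutant and in these WT arrays was 1380 to 1390 and 1060 to 1270 for myeloid progenitor markers, 703 to 714 and 458 to 483 for monocyte or macrophage markers, 587 to 599 and 767 to 772 for T cell markers, 393 to 422 and 583 to 644 for fibroblast or endothelial markers, and 768 to 775 and 802 to 821 for B cell markers. The sums overlapped for erythroid markers, at 16000 to 16300 and 15600 to 16600, and for megakaryocyte markers, at 298 to 326 and 315 to 352. Of the T cell and of the monocyte or macrophage markers 4 of 5 each lay in the background range on all arrays, so their sums rest on few genes. CD34, KIT and CSF3R of the myeloid progenitor list were lower in both JAK2 mutant arrays than in all 6 others. Their part in these differences was not tested.

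The TNFRSF1A mutant was compared with the WT arrays of the TNF-alpha experiment. PFKM alone of the 32 members passed 2-fold, at -1.80 without TNF-alpha and -1.91 with it, where 0.607% and 0.919% of all compared genes were 2-fold lower and 0.373% and 0.304% higher. PFKM, the muscle-type phosphofructokinase, was at 7.10, 7.13, 6.64 and 6.53, and at 6.80, 6.75, 5.0 and 4.84. The TNFRSF1A mutant arrays were its lowest by far, and both were in the background range of their arrays, so the size is a bound. With the mutant values raised to the upper quartile of the background probe sets, PFKM was at least 0.78 and 0.70 lower on the log2 scale, under 2-fold. PFKM rests on 1 probe set, and the other phosphofructokinases PFKL and PFKP differed by -0.06 and 0.02 without TNF-alpha.

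At 1.5-fold 3 members were lower in each comparison, where 1.54% and 2.24% of all genes were: PFKM and NDRG1 in both, ENO2 without TNF-alpha and PFKFB3 with it. NDRG1 was at -0.64 and -0.61 and ENO2 at -0.63 and -0.51. PFKFB3 was at 0.06 and -0.73. Both stood between the levels of the experiments' WT arrays: against WT replicate 1, the unstimulated TNFRSF1A mutant was 1.25 higher for NDRG1 and 0.80 higher for ENO2. The medians were -0.18 and -0.15 over the other HIF targets, -0.12 and -0.08 over the enzymes and 0.04 and 0.01 over all genes. Against WT replicate 1 the median of the other HIF targets turned to 0.76. Both mutant arrays lay below both WT arrays for 16 of 32 members, against 25.6% of all genes. The same held for 25 of 31 oxidative phosphorylation subunits and 7 of 9 reference (housekeeping) genes, so this is not particular to the members. The additive limma fit called PFKM, NDRG1 and ENO2 lower, with adjusted p of 0.0005, 0.012 and 0.047 by limma, and no member higher, where it called 2.84% of all genes lower and 3.97% higher. Here too the unstimulated and the stimulated mutant array stand as replicates, so these p-values do not measure the spread between cultures or lines. The actin 3′ to 5′ ratios were 4.51 and 5.53 in the mutant and 3.27 and 4.81 in WT, and marker levels moved too. The summed linear level in the mutant and in these WT arrays was 1300 to 1320 and 973 to 1090 for myeloid progenitor markers, 592 to 599 and 498 to 504 for monocyte or macrophage markers, 552 to 558 and 1080 to 1170 for T cell markers, 13400 to 13500 and 15600 to 16600 for erythroid markers, and 450 to 454 and 570 to 571 for fibroblast or endothelial markers. It was 347 to 350 and 354 to 372 for megakaryocyte markers, and overlapped for B cell markers, at 901 to 962 and 853 to 924. CEBPA of the myeloid progenitor list was 1.01 and 1.11 higher in the mutant, and CD3D, the 1 T cell marker above the level filter, was at -1.17 and -1.32. Their part in these differences was not tested.

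For the cytokines, 0 of 32 members passed 2-fold in any of the 4 comparisons of stimulated with unstimulated cells. The share of all compared genes past 2-fold was 0.607% for IFN-gamma in WT, 0.0% in the JAK2 mutant, 0.321% for TNF-alpha in WT and 0.0% in the TNFRSF1A mutant. The additive limma fit, which takes a cytokine's effect as equal in WT and mutant, called 0 members and 0 of all genes for either cytokine. Its 2 residual degrees of freedom are the differences in a cytokine's effect between WT and mutant. A response in WT alone thus enters the residual as well as the effect, so these calls of 0 cannot show that no gene responded. At an unadjusted p under 0.05 by limma this fit gave 4 members for IFN-gamma and 1 for TNF-alpha, against 938 and 473 of all genes. The limma fit of the 7 conditions takes the mean of both unstimulated WT arrays as the control, has no term for the experiment and has the difference between these 2 arrays as its residual, so its unstimulated comparisons mix the experiments. It also called 0 members, where it called 0.00867% of all genes for each cytokine in WT and 0.0% in each mutant. It called no member in the mutant comparisons either, where it called 0.165% and 0.182% of all genes for the JAK2 mutant and 0.0434% and 0.0347% for the TNFRSF1A mutant.

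In WT cells with IFN-gamma, ADM (0.67) and EGLN3 (0.65) passed 1.5-fold, where 1.38% of all compared genes rose that far, and ANKRD37 was 0.54 higher. In the JAK2 mutant the same genes differed by 0.08, 0.02 and 0.07, and the difference between WT and mutant was not tested. Against WT replicate 2, WT with IFN-gamma was at -0.88 for ADM and -0.33 for EGLN3, so both directions turn with the other control. The medians in WT were 0.14 over the other HIF targets, 0.02 over the enzymes and -0.02 over all genes. HK1 was 0.32 higher by its brightest probe set, while its others gave 0.03 to 0.11, so the size rests on the brightest.

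**Figure D4:**
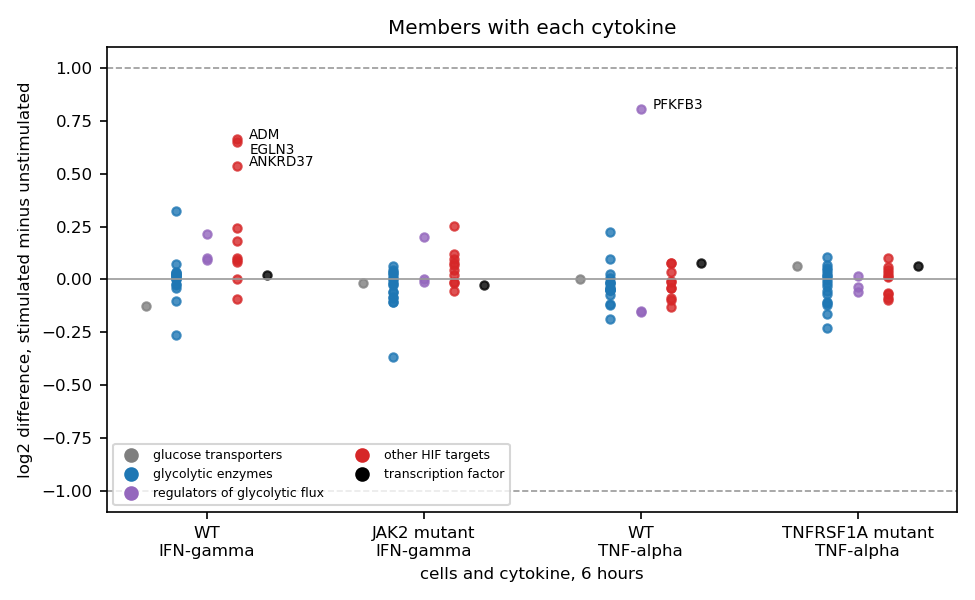
Log2 difference of each of the 32 members between stimulated and unstimulated cells, for each cytokine and genotype; points are coloured by role and dashed lines mark 2-fold. No point reaches 2-fold, and PFKFB3 at 0.81 with TNF-alpha in WT is the highest.

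In WT cells with TNF-alpha, PFKFB3 was the only member past 1.5-fold, at 0.81, where 1.09% of all compared genes rose that far. The WT array with TNF-alpha, at 11.95, was the highest of the 8 for PFKFB3, and the TNFRSF1A mutant differed by 0.02. Of its 4 probe sets 2 lay in the background range in WT replicate 2 and the other above it gave 0.04, so the size rests on the brightest. The medians were -0.03 over the other HIF targets and -0.05 over the enzymes, and 0.01 over all genes. Of the further lists, SLC2A6 was 2-fold higher at 1.26 and HILPDA was 0.90 higher, while both differed by -0.15 and 0.06 in the TNFRSF1A mutant.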

How the data were processed

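Biotin-labelled RNA of each sample was put on its own Affymetrix PrimeView array, per the labels. What was deposited is the authors' linear intensity for each probe set, and the submitters' processing notes name RMA and Affymetrix Expression Console, version 1.1. RMA makes the arrays' distributions equal, so a shift of most genes one way would not be seen. The step back to a linear scale was inferred from the values. Log2 was taken first. Gene names came from GEO's platform annotation, updated by gene identifier against RefSeq (GRCh38.p14), and 44994 of 49395 probe sets had 1 gene. Background range means below the upper quartile of 23 background control probe sets, which ran from 5.76 to 6.04 on the log2 scale. The number of arrays limits the precision. Limma 3.58.1 in R 4.3.3 served as an alternative, with Benjamini-Hochberg adjustment over all 11529 genes, and the counting was checked on simulated data. Those data held independent noise and planted differences with no shift between the experiments, a simpler case than these arrays. Genes named outside the 34 members are those past 2-fold, at most 4 per list and comparison. ANKRD37, HK1, and HILPDA with TNF-alpha were also named, after their values were seen, as were the stimulated WT pair, the counts of values that do not overlap and the background bound. The members and lists were chosen with earlier results of these data known.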

Additional observations from a re-analysis of the deposited data

How the results depend on the processing

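No paired analysis was possible because the groups compared share fewer than 2 replicate numbers; the additive limma fit has the experiment as a term instead. Of 103 recomputed counts of members 77 stayed within 1.5 times, and no 2-fold call of a member changed sign. Counts of 0 that stayed 0, as in the cytokine comparisons, are among the 77 and say nothing about how stable the 2-fold calls are. Between the unstimulated WT arrays 7 members passed 2-fold; 1 passed 3-fold, the additive limma fit called 17, and the stimulated WT pair gave 3, with a median of 0.39 over the other HIF targets. The limma fit of 7 conditions takes the mean of both unstimulated WT arrays as control, with no experiment term, and the mean of probe sets includes some in the background range. For the unstimulated JAK2 mutant the 2 members became 0 at 3-fold, 1 by the mean of all probe sets, 0 in the limma fit of 7 conditions and 12 in the additive fit. With IFN-gamma they became 6 at 1.5-fold, 1 at 3-fold, 1 by the mean of probe sets and 0 in the limma fit of 7 conditions. For the TNFRSF1A mutant the 1 member, PFKM, became 3 at 1.5-fold and 3 in the additive fit, and 0 at a log2 level of 8, in the limma fit of 7 conditions and with the background bound; with TNF-alpha it became 3 at 1.5-fold and 0 in the same 3 settings. At 1.5-fold IFN-gamma in WT gave 2 members and TNF-alpha 1.

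The choice of WT control also moved values. With WT replicate 1 left out, the JAK2 mutant against WT replicate 2 gave 9 members past 2-fold and a median of -1.03 over the other HIF targets, and IFN-gamma in WT gave 4 and -0.39. With WT replicate 2 left out, the TNFRSF1A mutant against WT replicate 1 gave 5 and 0.76, and TNF-alpha in WT gave 8 and 0.99. With the mean of both as control, the median was 0.27 for the TNFRSF1A mutant and 0.46 for TNF-alpha in WT. These settings change the control array alone. The limma fit of 7 conditions, with 1 residual degree of freedom, gives no value for the unstimulated WT pair, and the additive fit gives none for the stimulated mutants or for a cytokine within 1 genotype. Dim probe sets such as PFKM in the TNFRSF1A mutant, and bright ones such as LDHA, limit what the arrays can show.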
